A study of Saccharomyces cerevisiae with 14 samples.

Results

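The genes described here make amino acids in budding yeast (Saccharomyces cerevisiae) and are classic targets of Gcn4, together with GCN4 itself. They were chosen, with earlier results of these data known, by a list of 41 reading frame identifiers that uses no measured value. Of these, 40 had a row among the 6670 rows of the read count table, and the other is not analysed here. By the product of the pathway, 7 belong to arginine, 4 to histidine, 3 to leucine, 6 to isoleucine and valine, 7 to lysine, 7 to tryptophan and the other aromatics, and 5 to threonine and asparagine, with GCN4 as the regulator. All 40 were among the 6337 genes that passed the filter on low counts.

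Poly-A RNA was sequenced from 7 groups of 2 libraries. Cells received 5 nM beta-estradiol dissolved in ethanol, or ethanol alone, each for 1, 2 or 4 h, and untreated cells were taken at 0 h. Every group carried the genotype Z3EVpr-SWI4, in which an estradiol-activated synthetic factor drives SWI4, the DNA-binding subunit of the G1 transcription factor SBF. No group lacked this construct, so effects of SWI4, of estradiol and of the synthetic factor cannot be told apart. The medium was synthetic complete with 2% glucose, which supplies amino acids from outside. The protocol text names a 1 h induction only, and the times used here come from each sample's own label.

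Gcn4 is a transcription factor that raises the expression of amino acid biosynthesis genes when cells are short of amino acids. Its own output is set mainly by translation: short upstream reading frames hold back the Gcn4 protein until uncharged tRNA activates the kinase Gcn2, which slows the recycling of the initiation factor eIF2. Single pathways have further regulators, among them the ArgR proteins with Mcm1 for arginine, Leu3 for leucine and branched-chain genes, and Lys14 for lysine. Gcn4 binds DNA around the core TGACTC.

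The core TGACTC, searched on both strands in the 400 bases before each start codon, was present for 32 of the 40 genes (80.0%), against 618 of 5976 protein-coding genes of the count table (10.3%). It was found for 7 of 7 arginine genes, 4 of 4 histidine genes, 3 of 3 leucine genes, 5 of 6 isoleucine and valine genes, 5 of 7 aromatic genes and 5 of 5 threonine and asparagine genes, but for only 3 of 7 lysine genes and not for GCN4. The palindromic core of Lys14, TCCNNNGGA, was added after values of the lysine genes had been seen; it occurred for 6 of the 40 genes, 4 of them lysine genes (LYS1, LYS9, LYS12 and LYS21) and the others LEU9 and THR4, against 276 of 5976 genes (4.62%). A match is a description of these letters and not evidence of binding. The windows below are shown because they belong to genes that fell in the average comparison; each runs 5′ to 3′ on the gene's coding strand, with the Gcn4 core in capitals (GAGTCA is the same core read on the other strand). HIS4 had 3 matches and LYS1 had 2, and not all of these are shown. Positions are those of RefSeq's R64 genome, while the build that the counts rest on is not stated.
ARG1, chrXV:218854-218883, plus strand: gtgattttttagTGACTCatgtcgcatttg
ARG1, chrXV:218925-218954, plus strand: tgccgtatggaaGAGTCAtttaaaggcagg
ARG3, chrX:268473-268502, plus strand: agggtcacgtcgTGACTCatatgctttctt
ARG8, chrXV:58567-58596, plus strand: cagctcgctatgTGACTCacttaaagtaca
HIS4, chrIII:68515-68544, minus strand: acccatgcacagTGACTCacgtttttttat
LEU9, chrXV:522758-522787, plus strand: ggtcgtagtgaaTGACTCatatttttccat
ASN1, chrXVI:822381-822410, plus strand: tcatgtaacattTGACTCattctgtaaact
LYS1, chrIX:420968-420997, minus strand: tactaagtcgatGAGTCAaaaaagactctt
LYS2, chrII:474103-474132, minus strand: gtttttcgcgtgTGACTCaatgtcgaaata
LYS12, chrIX:187773-187802, minus strand: atattcttaagaTGACTCtaattagaggaa

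LYS1, LYS9 and LYS12, of the 4 lysine genes that fell on average, had the Lys14 core in the same window, in capitals below, and LYS2 did not. Among the lysine genes that did not pass the test, LYS21 had it, and LYS4 and LYS20 did not. LYS9, which had the lowest average fold change of the lysine genes, had no TGACTC there.
LYS1, chrIX:420913-420942, minus strand: atttttttttTCCAGCGGAatttggaattc
LYS9, chrXIV:715594-715623, minus strand: gaatcgaaatTCCGTTGGAaaaattcgctt
LYS9, chrXIV:715532-715561, minus strand: attgagaattTCCAATGGAattatcagcaa
LYS12, chrIX:187795-187824, minus strand: ttcactttttTCCCGTGGAaaaatattctt

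Libraries held 3469868 to 17314913 counts, and the 4 ethanol libraries of 1 h and 2 h were the shallowest. Levels are CPM (counts scaled to a common library size with TMM factors), which adjust library totals for a few very abundant genes. SWI4 separated the groups as labelled, with 668 to 1731 CPM in the 6 estradiol libraries, against 12.1 to 23.0 CPM in the other 8. Before any scaling, the 40 genes took 1.28% to 1.54% of all counts in the 6 estradiol libraries, against 1.74% to 2.15% in the 6 ethanol libraries and 1.83% to 1.95% in the 2 untreated libraries. The estradiol libraries were therefore the lowest, with no overlap. Levels are averages over whole cultures, so fewer cells with a transcript and less of it per cell cannot be told apart.

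Across the 3 times together, a part of these genes was lower in estradiol cells than in ethanol cells. Of the 40 genes, 11 fell and 0 rose in the average comparison (6 against 6 libraries, edgeR quasi-likelihood test with time as a factor, adjusted p under 0.05 over 6320 genes), while 2.93% of all genes tested fell and 3.29% rose. Among them were ARG1, ARG3, ARG8, HIS4, LEU9, LYS1, LYS2, LYS9, LYS12 and ASN1. All 40 had a log2 fold change under 0, against 46.7% of all genes, and their median was -0.35, against 0.02 over all genes. On library totals 37 of 40 were below 0, with a median of -0.31, and without ethanol 1 h replicate 1 the count was 32 and the median -0.15. The number of the 40 genes called lower moved when single libraries were left out. It was 5 without estradiol 4 h replicate 1, ethanol 2 h replicate 2 or ethanol 4 h replicate 2, 6 without estradiol 1 h replicate 1, 1 h replicate 2, 2 h replicate 1 or 4 h replicate 2, and 7 without ethanol 2 h replicate 1. ARG1, ARG3, LYS9 and LYS12 were called under all 20 alternatives tried, while ARG8, HIS4, LEU9, LYS1, LYS2 and ASN1 were lost under 4 to 12 of them.

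**Figure D1:**
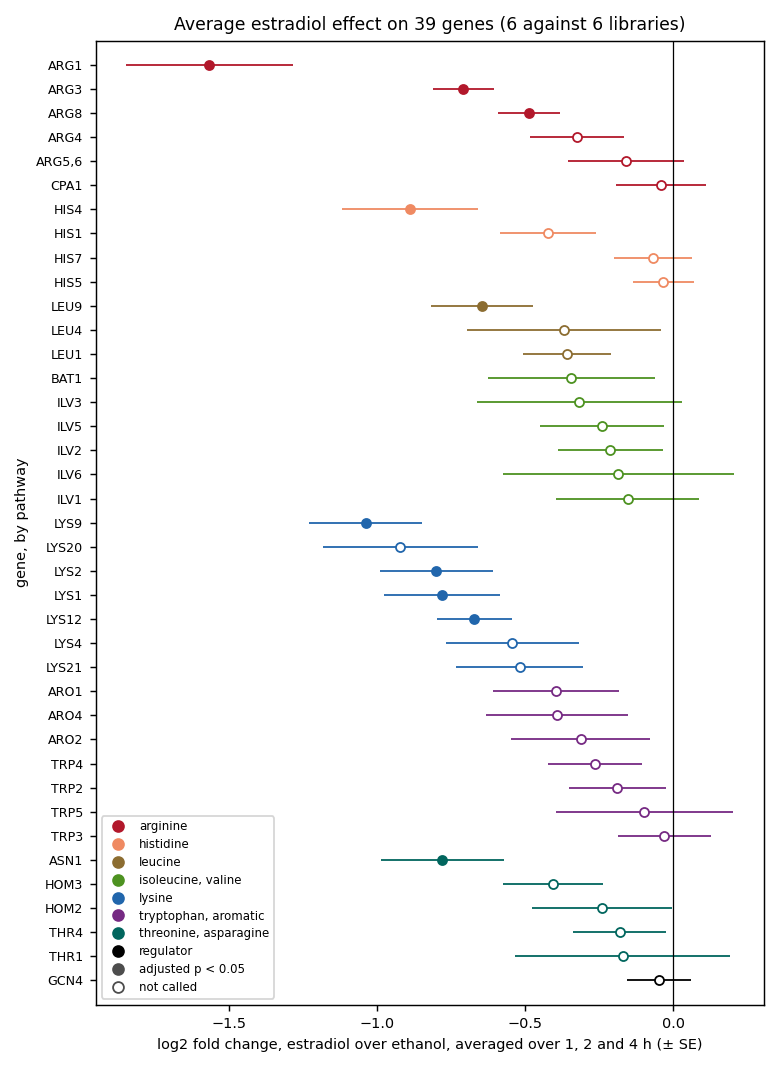
Average log2 fold change of estradiol over ethanol (x axis, points with ± SE bars) for each of 39 of the 40 genes (y axis, coloured by pathway); filled points passed an adjusted p of 0.05 and open points did not. All 39 points lie left of 0, from ARG1 at -1.57 to TRP3 at -0.03, and the lysine genes lie between -1.04 and -0.52.

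At single times, with 2 libraries a group, no gene of the 40 passed the threshold for estradiol against ethanol: edgeR called 0 at 1 h, 0 at 2 h and 0 at 4 h, where it called 0.963%, 1.26% and 1.88% of all genes. At an unadjusted p under 0.05, 17 of the 40 were lower at 1 h, 5 at 2 h and 7 at 4 h, against 6.26%, 2.90% and 3.22% of all genes, and 0 were higher at any of the times, against 3.46%, 3.49% and 4.62%. DESeq2 called 6, 2 and 3 of the 40, all lower. Over all genes it called 97, 58 and 91 lower, and 60, 91 and 112 higher. The log2 fold change was under 0 for 40 of the 40 at 1 h, 23 at 2 h and 34 at 4 h, against 49.6%, 45.8% and 51.6% of all genes. Both estradiol libraries lay below both ethanol libraries for 24 of the 40 at 1 h, 11 at 2 h and 21 at 4 h, against 16.7%, 12.9% and 17.7% of all genes. For 11 genes (27.5%), the same 11 as called on average, they did so at all 3 times, against 4.20% of all genes. The mean was lower at all 3 times for 23 genes (57.5%, against 21.6%). For 6 genes, all 6 estradiol libraries lay below all 6 ethanol libraries (15.0%, against 2.08% of all genes): LEU9, LYS1, LYS2, LYS9, LYS12 and ASN1. On library totals in place of TMM, these counts were 19 genes at all 3 times (4.29% of all genes) and 12 genes with all 6 below all 6 (2.11%).

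**Figure D2:**
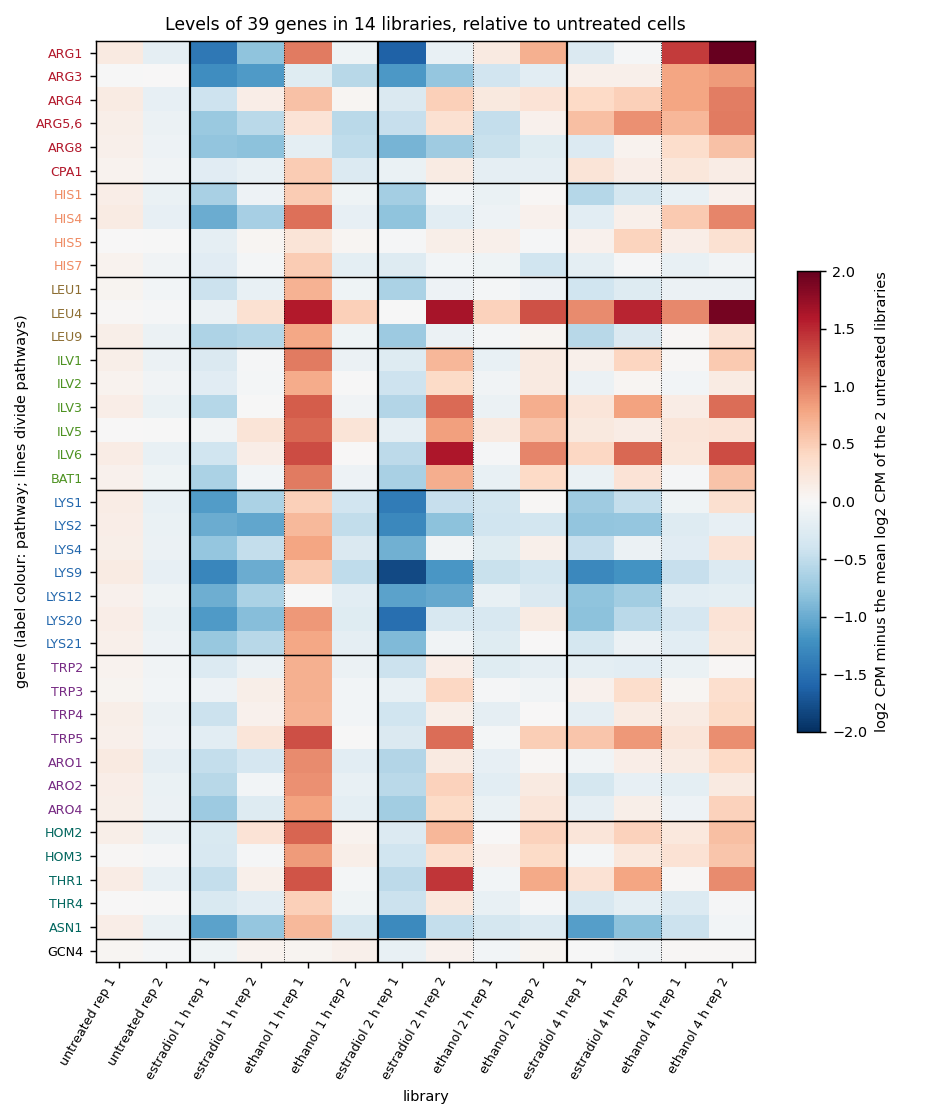
Level of each of 39 of the 40 genes (rows, grouped by pathway) in each of 14 libraries (columns), as log2 CPM minus the mean log2 CPM of the 2 untreated libraries; red is higher and blue lower than untreated, and colours saturate at 2 in either direction. Lysine genes and ASN1 are blue in most estradiol libraries, arginine genes turn red at 4 h of ethanol, GCN4 is pale throughout, and ethanol 1 h replicate 1 and estradiol 2 h replicate 2 are redder than their partner libraries.

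GCN4 (YEL009C) encodes the activator that the other genes are known to answer to, and its transcript level was nearly flat. It was 555 and 618 CPM at 1 h, 533 and 622 CPM at 2 h and 587 and 561 CPM at 4 h of estradiol. It was 609 and 635 CPM at 1 h, 566 and 610.5 CPM at 2 h and 601 and 598 CPM at 4 h of ethanol, and 607 and 571 CPM in untreated cells. The highest of the 14 values was 1.19 times the lowest. Among 4818 genes above 10 CPM in every library, 2 had a ratio this low, GCN4 included, and the median was 1.92; over the 40 genes the median was 2.84. This flatness held on RLE factors (1.19) but less so on library totals, where GCN4 ran from 436 to 694 CPM (1.59 times) and 582 of 4591 such genes had a ratio as low. The average estradiol effect on GCN4 was -0.05 on the log2 scale (SE 0.11, 95% interval -0.30 to 0.20). The counts measure its RNA and not its translation.

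In the arginine pathway, 4 of 7 genes fell in the average comparison, and the median log2 fold change was -0.49. ARG1 (YOL058W), argininosuccinate synthetase, had 90.7 and 139.5 CPM with estradiol at 1 h, against 500.1 and 230.0 CPM with ethanol. At 2 h it had 79.1 and 219 CPM with estradiol, against 275 and 396 CPM with ethanol. At 4 h it had 199 and 240.4 CPM with estradiol, against 642 and 988 CPM with ethanol; untreated cells had 277 and 214 CPM. The estradiol libraries were lower at each time without overlap, and the ethanol libraries of 4 h were the highest of all. ARG1 fell by 1.57 on the log2 scale on average (SE 0.28, edgeR adjusted p = 0.00483, range over alternatives 1.17e-06 to 0.0205), a level 2.96-fold lower. This was the largest fall among the 40 genes. Its highest value was 12.5 times its lowest, the widest range of the 40.

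ARG3 (YJL088W), ornithine carbamoyltransferase, had the smallest adjusted p of the 40 in the average comparison. With estradiol it had 66.9 and 71.9 CPM at 1 h, 71.0 and 92.4 CPM at 2 h and 169.6 and 169.4 CPM at 4 h. With ethanol it had 134 and 107 CPM at 1 h, 120.4 and 136 CPM at 2 h and 271 and 285 CPM at 4 h, and untreated cells had 157 and 158 CPM. The estradiol libraries were below the ethanol libraries at each time, and both treatments were higher at 4 h than at 1 or 2 h. ARG3 fell by 0.71 on average (SE 0.10, edgeR adjusted p = 0.000869), and the log2 difference was -0.79 at 1 h, -0.65 at 2 h and -0.71 at 4 h (SE 0.19 each). ARG3 rose by 1.29 between 1 and 4 h of estradiol (edgeR adjusted p = 0.00725) and by 1.21 between 1 and 4 h of ethanol (edgeR adjusted p = 0.0361). It was the 1 gene of the 40 called in each of these, where 0.679% and 0.158% of all genes rose; the ethanol call was lost without any 1 of its 4 libraries, and the estradiol call without 1 h replicate 1, 1 h replicate 2 or 4 h replicate 2 and on library totals (edgeR adjusted p = 0.0568).

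ARG8 (YOL140W), acetylornithine aminotransferase, had 58.1 and 56.9 CPM at 1 h, 52.4 and 61.2 CPM at 2 h and 83.1 and 104.5 CPM at 4 h of estradiol. It had 87.7 and 70.0 CPM, 73.7 and 84.1 CPM and 128 and 150.04 CPM at the same times of ethanol, and 107 and 93.5 CPM in untreated cells. The pairs did not overlap at any time, and ARG8 fell by 0.49 on average (SE 0.11, edgeR adjusted p = 0.0163, lost under 4 of 20 alternatives). CPA1, of carbamoyl phosphate synthesis, did not pass the test; its average log2 fold change was -0.04 (95% interval -0.39 to 0.31). ARG4, argininosuccinate lyase, and ARG5,6, which carries the early kinase and reductase steps, stood at -0.32 and -0.16.

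**Figure D3:**
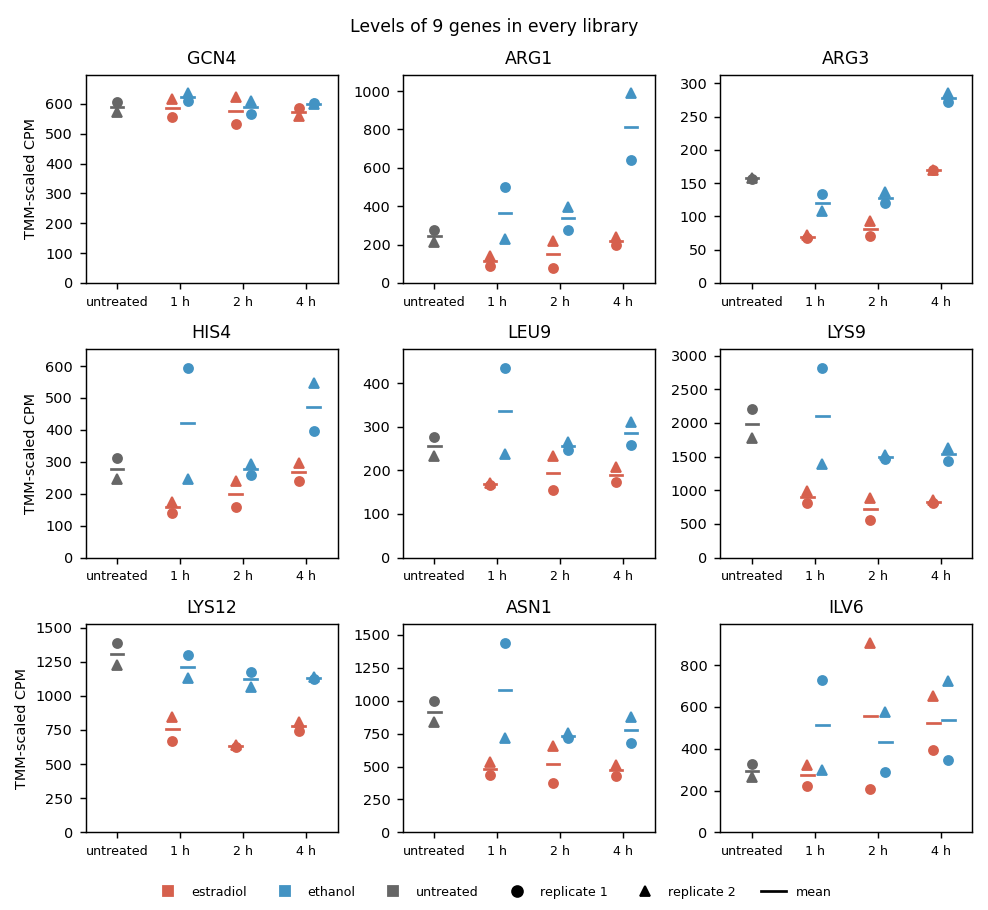
TMM-scaled CPM (y axes, from 0) of 9 genes in untreated cells and at 1, 2 and 4 h of estradiol or ethanol; circles are replicate 1, triangles replicate 2 and bars the mean of 2. GCN4 stays between 533 and 635 CPM, ARG1 and ARG3 climb at 4 h of ethanol, LYS9 and LYS12 are lower in every estradiol library than in every other library, and ILV6 splits by replicate.

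Among the histidine genes 1 of 4 fell. HIS4 (YCL030C), a trifunctional enzyme with 3 TGACTC cores in its window, had 139 and 176 CPM at 1 h, 158 and 240.3 CPM at 2 h and 240.5 and 296 CPM at 4 h of estradiol. It had 593 and 248 CPM, 259 and 294 CPM and 396 and 547 CPM at the same times of ethanol, and 312 and 246 CPM in untreated cells. The pairs did not overlap, although ethanol 1 h replicate 1 stood far above its partner. HIS4 fell by 0.89 on average (SE 0.23, edgeR adjusted p = 0.0400), a call lost under 10 of 20 alternatives. HIS1, which catalyses the first step, stood at -0.42, and HIS7 and HIS5 at -0.07 and -0.03.

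Of the leucine genes, LEU9 (YOR108W), the minor of a pair of alpha-isopropylmalate synthases, fell by 0.65 on average (SE 0.17, edgeR adjusted p = 0.0448, lost under 12 of 20 alternatives). It had 166 and 171 CPM, 154 and 234 CPM and 173 and 207 CPM at 1, 2 and 4 h of estradiol. With ethanol it had 434 and 238 CPM, 246 and 265 CPM and 259 and 311 CPM, and untreated cells had 275 and 234 CPM. All estradiol values lay below all ethanol values. Its paralogue LEU4 behaved less evenly, at 148 and 199 CPM, 159 and 504 CPM and 309 and 461 CPM at 1, 2 and 4 h of estradiol. It had 479.7 and 223 CPM, 220.1 and 388 CPM and 311 and 603 CPM at those times of ethanol, against 164 and 157 CPM in untreated cells. LEU4 libraries overlapped at 2 and 4 h, its average effect was -0.37 (95% interval -1.13 to 0.39), and every ethanol library exceeded both untreated ones. The coding sequences of LEU4 and LEU9 share 76.8% of bases, with a longest identical run of 41 bases, so reads could be divided between them where this run is covered.

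The lysine pathway had 4 of 7 genes called lower on average, and its median log2 fold change was -0.78. LYS9 (YNR050C), saccharopine dehydrogenase of the penultimate step, had 804 and 993 CPM at 1 h, 563 and 883 CPM at 2 h and 804 and 861 CPM at 4 h of estradiol. It had 2812 and 1384 CPM, 1457 and 1524 CPM and 1436 and 1635 CPM at the same times of ethanol, and 2206 and 1769.6 CPM in untreated cells. All 6 estradiol values were below every other value of LYS9. It fell by 1.04 on average (SE 0.19, edgeR adjusted p = 0.00567), which is 2.06-fold lower. LYS12 (YIL094C), homoisocitrate dehydrogenase, had 665 and 843 CPM, 624 and 642 CPM and 745 and 809 CPM at 1, 2 and 4 h of estradiol. With ethanol it had 1301 and 1127 CPM, 1178 and 1063 CPM and 1123 and 1138 CPM, and untreated cells had 1387 and 1226 CPM. Its replicates were close, the estradiol libraries were again the lowest, and it fell by 0.67 (SE 0.13, edgeR adjusted p = 0.00644).

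LYS2 (YBR115C), alpha-aminoadipate reductase, had 334 and 323 CPM, 273 and 379 CPM and 388 and 389 CPM at 1, 2 and 4 h of estradiol. It had 1051 and 477 CPM, 507 and 519 CPM and 557 and 596 CPM with ethanol, and 735 and 606 CPM in untreated cells. It fell by 0.80 (SE 0.19, edgeR adjusted p = 0.0285), with no overlap between treatments. LYS1 (YIR034C), the saccharopine dehydrogenase that forms lysine, had 124 and 173 CPM, 102 and 196 CPM and 165 and 194 CPM at 1, 2 and 4 h of estradiol. It had 375 and 206 CPM, 209 and 273 CPM and 253 and 337 CPM with ethanol, and 297 and 244 CPM in untreated cells. LYS1 fell by 0.78 (SE 0.20, edgeR adjusted p = 0.0352); both calls were lost under 9 of 20 alternatives. LYS20 and LYS21, the homocitrate synthases of the first step, stood at -0.92 (SE 0.26, edgeR adjusted p = 0.0592) and -0.52, and LYS4, homoaconitase, at -0.54. LYS20 and LYS21 share 88.1% of coding bases with an identical run of 278 bases, so their levels are uncertain one against the other. Per kilobase of coding sequence, LYS20 (1042 CPM), LYS9 (1019 CPM) and LYS12 (888 CPM) were the most abundant of the 40 over the 7 groups.

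Neither the isoleucine and valine genes (0 of 6) nor the aromatic genes (0 of 7) had a call, and their medians were -0.23 and -0.26. ILV5, acetohydroxyacid reductoisomerase and the gene of its pathway with the smallest p among the 7 groups, had 466 and 581 CPM, 433 and 859 CPM and 557 and 539 CPM at 1, 2 and 4 h of estradiol. With ethanol it had 1088 and 583 CPM, 556 and 722 CPM and 579 and 592 CPM, and untreated cells had 493 and 483 CPM. The treatments overlapped at 2 h, and the average effect was -0.24 (95% interval -0.73 to 0.25). ARO1, the pentafunctional enzyme of the shikimate route, had 192 and 212 CPM, 179 and 303 CPM and 257 and 295 CPM at 1, 2 and 4 h of estradiol. It had 517 and 232 CPM, 240.03 and 272 CPM and 302 and 352 CPM with ethanol, and 302 and 238 CPM in untreated cells. Its libraries also overlapped at 2 h, and the average effect was -0.40 (95% interval -0.88 to 0.09). The other genes of both pathways, among them ILV2 (acetolactate synthase), TRP5 (tryptophan synthase) and ARO4 (the entry step of the shikimate route), lay between -0.39 and -0.03.

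ASN1 (YPR145W), an asparagine synthetase, was the 1 gene called among the 5 of threonine and asparagine. It had 437 and 533 CPM, 378 and 659 CPM and 428 and 515 CPM at 1, 2 and 4 h of estradiol. It had 1439 and 717 CPM, 714 and 753 CPM and 675 and 878 CPM with ethanol, and 999 and 837 CPM in untreated cells. All estradiol values lay below all others, and ASN1 fell by 0.78 (SE 0.21, edgeR adjusted p = 0.0449, lost under 11 of 20 alternatives). It shares 81.0% of coding bases with ASN2, which is outside the 40, with an identical run of 83 bases. HOM3, aspartate kinase, stood at -0.40, and HOM2, THR4 and THR1, of the following steps, stood between -0.24 and -0.17.

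Whether the difference changed with time was tested jointly for 2 h and 4 h against 1 h. No gene of the 40 was called, and 0 had an unadjusted p under 0.05; the same test called 0 of all 6337 genes. In the test of any difference among the 7 groups, 3 of the 40 were called (ARG3, ARG8 and ARG1, with edgeR adjusted p-values of 0.000488, 0.00992 and 0.0327), against 4.40% of all genes, so the share of the 40 was close to that of all genes. That count ran from 1 without ethanol 4 h replicate 2 to 7 without ethanol 1 h replicate 2, and the call of ARG1 was lost under 11 of 21 alternatives.

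Against untreated cells, the lower levels in estradiol were called for ARG3 at 1 h (-1.18, edgeR adjusted p = 0.00684), the 1 gene of the 40, where 0.521% of all genes fell. At 2 h, 4 genes fell, where 0.963% of all genes fell: ARG3 (-0.95), ARG8 (-0.82), LYS9 (-1.46) and LYS12 (-1.05). At 4 h only LYS9 was called (-1.26, edgeR adjusted p = 0.0411), where 3.80% of all genes fell. These calls rest on 2 untreated libraries: leaving out either left 0 at each time, as did leaving out either estradiol library at 1 or 4 h or estradiol 2 h replicate 1, while without estradiol 2 h replicate 2 there was 1. On RLE factors the calls of LYS9 at 2 and 4 h and of ARG8 at 2 h were lost as well, and on library totals that of ARG8. All 7 lysine genes had both estradiol libraries below both untreated ones at 1 h (22.5% of all genes), 5 of 7 at 2 h (21.7%) and 6 of 7 at 4 h (34.1%). Over all 40 genes the counts below were 21, 11 and 13, the medians were -0.28, -0.10 and -0.03, and at 4 h 13 of the 40 had both estradiol libraries above both untreated ones (33.2% of all genes). At 4 h the 40 genes as a whole were thus close to the shares of all genes in both directions. The comparisons of estradiol with untreated and with ethanol share the estradiol libraries.

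In ethanol alone, edgeR called none of the 40 against untreated cells at 1, 2 or 4 h, where it called 0%, 0.0473% and 1.74% of all genes. At an unadjusted p under 0.05, 1, 0 and 7 were higher (4.86%, 4.20% and 10.2% of all genes), and DESeq2 called 0, 0 and 3. Over all genes, DESeq2 called 20 higher and 2 lower at 1 h, and 36 and 4 at 2 h. It called 301 higher and 183 lower at 4 h. At 4 h all 7 arginine genes had both ethanol libraries above both untreated ones (29.5% of all genes), with a median log2 fold change of 0.82. ARG1 stood at 1.73 (edgeR adjusted p = 0.0970) and ARG3 at 0.82 (edgeR adjusted p = 0.0503), just short of the threshold. The 7 lysine genes had a median of -0.01 there. In estradiol, all 7 arginine genes were above their 1 h levels at 4 h without overlap (24.9% of all genes), with a median of 0.71. In ethanol, 6 of 7 were above their 1 h levels without overlap (13.8% of all genes), with a median of 0.82. Over all 40 genes, 22 were above without overlap in estradiol (median 0.34), and 6 in ethanol (median -0.18).

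The other genes of these pathways are given from lists written for this purpose. Of 17 further biosynthesis enzymes, 6 pathway regulators (LYS14, LEU3, ARG80, ARG81, PCL5 and PHO85) and 11 genes of the eIF2 branch that controls Gcn4 translation, 0 were called in the average comparison in either direction. Their median log2 fold changes were -0.14, -0.03 and -0.18. LYS14, the activator of lysine genes, stood at 0.09 (SE 0.22). At 4 h of estradiol against untreated cells, 4 of the 11 eIF2 branch genes fell: GCN3 and GCD1, subunits of the exchange factor eIF2B, by 0.68 and 0.72, and SUI2 and SUI3, subunits of eIF2, by 0.66 and 0.74 (edgeR adjusted p between 0.0279 and 0.0478). As given above, 3.80% of all genes fell there. In ethanol at 4 h these 4 genes stood at -0.52, -0.47, -0.53 and -0.52 against the same untreated libraries, with none called, and the median of the 11 was -0.49, against -0.66 with estradiol. Estradiol against ethanol at 4 h gave a median of -0.19 with 0 called. HIS6, of the histidine pathway, fell by 1.02 at 4 h of estradiol against untreated cells. Against ethanol at 4 h it stood at -0.35 and was not called.

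Of 9 amino acid permeases, 3 fell on average and 0 rose, where 2.93% of all genes fell and 3.29% rose. The list also held CAN1 and LYP1, which had no row in the count table. BAP2, a branched-chain amino acid permease, had 139 and 167 CPM, 106 and 195 CPM and 146 and 173 CPM at 1, 2 and 4 h of estradiol. It had 446 and 261 CPM, 252 and 331 CPM and 278 and 346 CPM with ethanol, and 234 and 202 CPM in untreated cells. All of its estradiol values were below all others, and it fell by 1.03 (SE 0.18, edgeR adjusted p = 0.00379). TAT1, a permease for tyrosine and other amino acids, fell by 0.75 (SE 0.18), and DIP5, for glutamate and aspartate, by 0.36 (SE 0.09). BAP2 and TAT1 are neighbours on the chromosome.

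The spread between the 2 libraries of a group was shared by most of the 40 genes. Replicate 2 was above replicate 1 for 40 of 40 genes at 2 h of estradiol (median log2 ratio 0.76), with ILV6, the regulatory subunit of acetolactate synthase, at 205 and 907 CPM. Replicate 1 was above replicate 2 for 39 of 40 genes at 1 h of ethanol (median log2 ratio of replicate 2 over replicate 1, -0.88). These groups hold the 2 libraries with the lowest TMM factors, estradiol 2 h replicate 2 (0.708) and ethanol 1 h replicate 1 (0.715). On library totals alone the medians were -0.03 and -0.27 for the 40 genes, and -0.82 and 0.66 for all genes, so how the replicates of these groups compare depends on the scaling. Which scaling is right was not tested. Library totals moved the median of all genes by 0.31 at 1 h of estradiol against ethanol, -0.21 at 1 h of ethanol and 0.10 and -0.12 at 1 and 2 h of estradiol against untreated cells, and 0.17 and -0.20 between 1 and 4 h of ethanol and of estradiol.

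**Figure D4:**
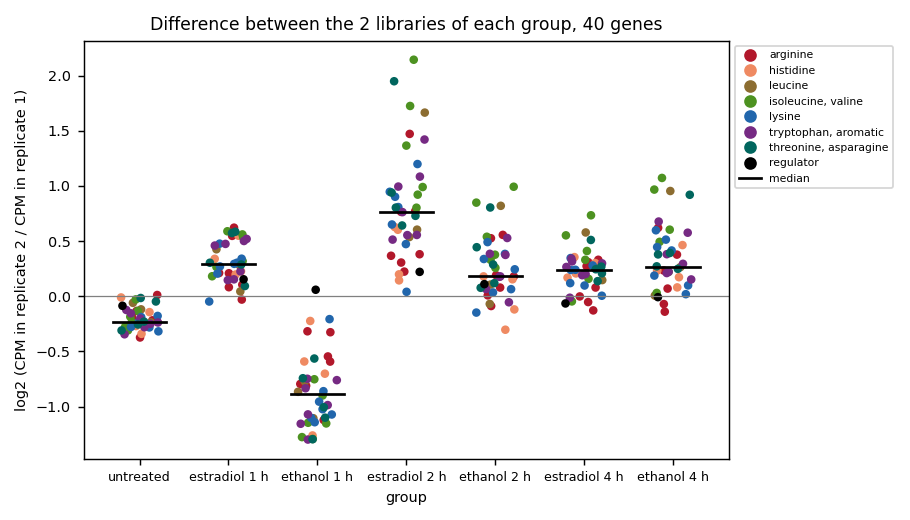
Log2 ratio of CPM in replicate 2 over replicate 1 (y axis) for each of 40 genes in each of 7 groups (x axis), coloured by pathway, with black bars at the median; points are spread sideways at random. At 2 h of estradiol all points are above 0 with a median of 0.76, at 1 h of ethanol the median is -0.88, and in the other groups it lies between -0.23 and 0.29.

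These 2 libraries touch the single times more than the average, but they moved the average too. Its median over the 40 genes was -0.35 with all libraries. It was -0.15 without ethanol 1 h replicate 1 and -0.55 without estradiol 2 h replicate 2. Without ethanol 1 h replicate 1 the median of the 40 genes at 1 h was -0.20, against -1.14 without replicate 2. Without estradiol 2 h replicate 2 the median at 2 h was -0.62, against 0.20 without replicate 1, where 13 of 40 genes were below 0. With both low-factor libraries left out together, an alternative chosen after seeing the data, 12 genes fell on average, the 11 above among them. Of all genes, 224 fell and 234 rose there. The median of the 40 was -0.38, and 37 of 40 genes were below 0.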

How the data were processed

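Per the labels' protocols, poly-A libraries were made with a Kapa kit from DNase-treated RNA. Alignment used Bowtie2 2.2.5, per the submitters' processing notes. The sources used here do not give the counting tool, genome build or strand setting. The authors deposited read counts for each open reading frame, not normalized, with 1 column per library. Symbols and sequences came from RefSeq's R64 assembly, which matched 5999 of 6670 identifiers.

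Counts were fitted in R 4.3.3 with edgeR 4.0.16: TMM factors, filterByExpr with a minimum count of 10, and a robust quasi-likelihood model with 1 coefficient per group over 14 libraries (7 residual degrees of freedom, common coefficient of variation 0.206). The average effect came from the 12 libraries of treated cells, with a factor for time. Tests were 2-sided and Benjamini-Hochberg adjusted within a comparison over all genes tested, with a threshold of 0.05. Each SE was taken from the fold change and its F statistic (log2 fold change over the root of F). The 95% intervals of the average rest on it and on 8 residual degrees of freedom. The tests also draw on the spread of all genes, so intervals and p-values need not match. The scripts were tested on simulated counts. Nothing in the labels says that replicates came from separate cultures; p-values then reflect only how these samples varied, which may be technical.

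The members, lists and tests were chosen with earlier results of these data known. Values in every library are given for GCN4, for genes of the 40 called in a comparison and for the gene with the smallest p of each pathway. LEU4, ILV6 and BAP2 were added after their values were seen. The values of 1 gene, which counts over the 40 include, are not reported here. Motifs were searched in the 400 bases before the annotated start codon, in place of the promoter windows first planned. Alternatives were RLE factors, library totals, no filter, DESeq2 1.42.0, a replicate block, 1 surrogate variable from sva 3.50.0 and leaving out each library.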

Additional observations from a re-analysis of the deposited data

How the results depend on the processing

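The number of the 40 genes called moved as follows, and the cause was not tested. Calls over all genes moved as well. For estradiol against ethanol, the surrogate variable called 137 genes higher and 133 lower at 1 h. It called 229 and 178 at 2 h, and 366 and 277 at 4 h. Library totals called 37 and 19, 52 and 35, and 65 and 54 at 1, 2 and 4 h. For the average, the surrogate variable called 633 and 601, and DESeq2 279 and 265. RLE factors called 197 and 182 for the average, library totals 137 and 131, and no filter 202 and 187. A surrogate variable from unscaled counts called 145 and 129. For estradiol against untreated cells, the surrogate variable called 520 and 465, 737 and 678, and 1218 and 1180 at these times. DESeq2 called 131 and 95, 289 and 150, and 654 and 468 there. Library totals called 62 and 18, 110 and 46, and 288 and 89, and RLE factors 67 and 32, 163 and 55, and 448 and 240. The unscaled surrogate variable called 7 and 5, 60 and 13, and 154 and 45. For the test of any difference among the 7 groups, counts over all genes under the alternatives are not given here. For estradiol against ethanol (0 called at 1, 2 and 4 h), library totals gave 1, 4 and 3, DESeq2 6, 2 and 3, and 1 surrogate variable 10, 11 and 14; leaving out 1 library gave 0 to 8 at 1 h and 0 at the other times, and leaving out both libraries with the lowest TMM factors gave 2 at 2 h. For the average (11 called), the surrogate variable gave 19 and its version from unscaled counts 6, and leaving out 1 library gave 5 to 12; RLE factors, library totals, DESeq2 and no filter gave 9, 15, 12 and 11. For ethanol against untreated cells, the surrogate variable gave 2 at 2 h, and at 4 h it gave 11, library totals 2, DESeq2 3 and the replicate block 1, against 0. Of those 11, 8 were higher and 3 lower. Over all genes, the surrogate variable called 121 higher and 39 lower at 2 h, and 657 and 609 at 4 h. DESeq2 called 301 and 183 at 4 h, library totals 90 and 4, and the replicate block 135 and 40. For estradiol against untreated cells at 1 h (1 called), library totals gave 3, DESeq2 4, the surrogate variable 16, its unscaled version 0 and leaving out 1 library 0. At 2 h (4 called), RLE gave 2, library totals 8, the surrogate variable 18, its unscaled version 0 and leaving out 1 library 0 to 1. At 4 h (1 called), RLE gave 0, library totals 6, DESeq2 2, the surrogate variable 20, its unscaled version 0 and leaving out 1 library 0. Between 1 and 4 h of ethanol (1 called), library totals gave 2, DESeq2 2, the surrogate variable 6, its unscaled version 0 and leaving out 1 library 0; of estradiol (1 called), DESeq2 and the surrogate variable gave 3 each and leaving out 1 library 0 to 1. For any difference among the 7 groups (3 called), library totals gave 9, DESeq2 10, the surrogate variable 21 and leaving out 1 library 1 to 7.

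The change of the difference with time stayed at 0 under every alternative run. Over the genes called in any of these comparisons, 260 repeat tests kept the call, 111 lost it and 0 reversed direction. Replicate numbers did not pair the samples in the same way in all groups. Of 21 pairs of groups, deviations of same-numbered libraries correlated above 0.1 in 11 and below -0.1 in 10. The correlations over all genes were large, from -0.69 to 0.74, and patterned. The 10 negative ones were those of untreated cells or 1 h of ethanol with each remaining group. Untreated cells and 1 h of ethanol correlated at 0.60. The replicate block gave 10 calls for the average, and 3 for estradiol at 2 h against untreated cells. Over all genes it called 224 higher and 194 lower for the average, and 175 and 66 at 2 h. It uses the replicate numbers as labelled, with the same sign in every group, so it cannot follow this pattern. The unscaled surrogate variable and the removal of both low-factor libraries were chosen after seeing the data. The 40 genes had at least 227 counts in every library, and each group had 2 libraries. On library totals the call between 1 and 4 h of estradiol was not ARG3, whose adjusted p was 0.0568 there.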
